A study of Mus musculus with 13 samples.

Results

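Imprinted genes lying outside the Igf2-H19 and Dlk1-Dio3 domains were described in mouse embryonic fibroblasts (MEFs) without Tet2 before and during reprogramming. The set was a list of 39 gene symbols, all 39 of which were found among the 24495 genes of the deposited read count table. They fall into 16 imprinted clusters or single loci, and 22 are known from the paternal allele, 16 from the maternal allele and 1 (Gnas) from either allele depending on the transcript. The allele assignments are textbook knowledge, since the counts do not separate parental alleles.

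Gene expression was measured by bulk RNA sequencing in 13 libraries of 4 groups. Tet2-WT, Tet2-E and pMXs are day 5 cultures of Tet2-/- MEFs with doxycycline-inducible reprogramming factors (OKSM; rtTA), infected with a pMXs retrovirus that carried wild-type Tet2, a Tet2 stalling mutant or no insert. Untreated MEFs are cells of the same genotype outside reprogramming, and it is unclear from the labels if they hold the empty vector. There were 3 Tet2-WT, 4 Tet2-E, 3 pMXs and 3 Untreated libraries. All cells had the strain background V6.5 129XBI/6 and came from embryonic day 12.5. The day 5 cells grew on growth-arrested feeder MEFs with LIF, 1 µM PD0325901 (an inhibitor of MEK), 3 µM CHIR99021 (an inhibitor of GSK3) and 2 µg/mL doxycycline, and no removal of feeders is described, so a day 5 library may hold feeder RNA. Replicates carry the numbers 1, 2 and 250 in Tet2-WT, 1, 2, 100 and 250 in Tet2-E, 2, 100 and 250 in pMXs, and 1, 2 and 100 in Untreated. The labels do not say that they were separate cultures, so a p-value here reflects the spread between these libraries alone, which may be technical. Libraries held 14052646 to 26265382 counts.

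Genomic imprinting restricts a gene to the copy inherited from one parent, through DNA methylation placed at an imprinting control region in the egg or the sperm. That methylation survives the wave of demethylation after fertilisation because zinc finger proteins such as ZFP57 hold the repressor TRIM28 and DNA methyltransferases at the control regions. TET2 oxidises 5-methylcytosine, the first step of active demethylation, and a stalling mutant mostly stops at 5-hydroxymethylcytosine. Imprinted genes are known as regulators of fetal and placental growth, and several are highly expressed in embryonic mesenchyme.

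The vectors were checked by Tet2 itself. Tet2 stood at 1217 ± 36.2 counts-per-million (CPM) in Tet2-WT, 1160 ± 388 CPM in Tet2-E, 46.4 ± 10.8 CPM in pMXs and 43.8 ± 5.40 CPM in Untreated (SD, n = 3, 4, 3 and 3 libraries). Over pMXs it was higher by 4.72 ± 0.31 on the log2 scale in Tet2-WT (edgeR adjusted p = 3e-06) and by 4.65 ± 0.30 in Tet2-E (edgeR adjusted p = 3.89e-05). The Tet2-E library with replicate number 100 was lower than the others, at 581 CPM. Within replicate numbers 100 and 250 alone the differences were 4.95 for Tet2-WT and 4.55 for Tet2-E, but they did not pass (edgeR adjusted p = 0.0968 and 0.314), and with only the libraries of Tet2-E and pMXs in the fit the difference was 4.64 (0.0744). Here and below a log2 fold change is followed by its standard error, the adjusted p is a Benjamini-Hochberg value over the 14607 genes tested, and a gene rose or fell where this value was under 0.05.

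Of the 39 imprinted genes, 33 passed the filter on low counts. The other 6 had few or no counts. Magel2, a ubiquitin ligase regulator of the Snrpn cluster, had no count in Tet2-WT, 2 counts in 1 of the 4 Tet2-E libraries, 3 counts in 1 of the 3 pMXs libraries, and 6, 8 and 10 counts in Untreated. Snrpn, a splicing factor gene, and Kcnk9, a potassium channel gene, had 1 count each over all 13 libraries. Snrpn shares 10% of its exon bases with Snurf on the same strand in GENCODE M21, and Snurf was at 0 in all 13 libraries. Reads that fit both genes may not have been counted for either. Most Snrpn exon bases lie outside this overlap, and the overlap in the annotation behind the counts was not examined. The level of Snrpn is therefore uncertain. Calcr, the calcitonin receptor, had at most 2 counts in a library, Phlda2, a repressor of placental growth, at most 4, and Kcnq1, a potassium channel gene, at most 5. Usp29, a ubiquitin peptidase gene, passed only through Untreated, with 0 to 5 counts in the 10 day 5 libraries and 12 to 16 counts in Untreated.

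Most of these genes differed between empty-vector cultures at day 5 and untreated MEFs, as most genes did. In pMXs against Untreated, 24 of the 33 imprinted genes tested passed (72.7%), where 70.1% of all genes tested did. Of the 24, 7 rose and 17 fell, while 35% of all genes rose and 35% fell, and the median log2 fold change was -0.27 over the imprinted genes and 0.00 over all genes. Without Usp29, the 1 gene that needed the Untreated libraries to pass the filter and so had to be lower in pMXs, 23 of 32 passed (71.9%), with 7 up and 16 down and a median of -0.26. Among the 20 paternally expressed genes tested 6 rose and 9 fell, Usp29 among the 9. Among the 12 maternally expressed genes tested 1 rose and 7 fell. These counts by allele include genes known as imprinted only in some tissues, mostly placenta or brain. Of these, 10 were tested, and 2 rose and 5 fell (70%). Of the 23 tested with broader imprinting 5 rose and 12 fell (73.9%), Usp29 among the 12. Groups did not overlap for 26 of the 33, or 25 of 32 without Usp29, against 72% of all genes. Medium, feeders, virus and reprogramming factors differ together between these groups and cannot be told apart, and in bulk samples fewer cells of a type and less RNA per cell cannot be told apart either. Fibroblast markers moved with this comparison: the summed level of 16 markers was 23325 to 27428 CPM in pMXs and 48476 to 51416 CPM in Untreated, with none at 0, and 15 of the 16 fell. The part of this shift in the imprinted genes was not tested.

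**Figure D1:**
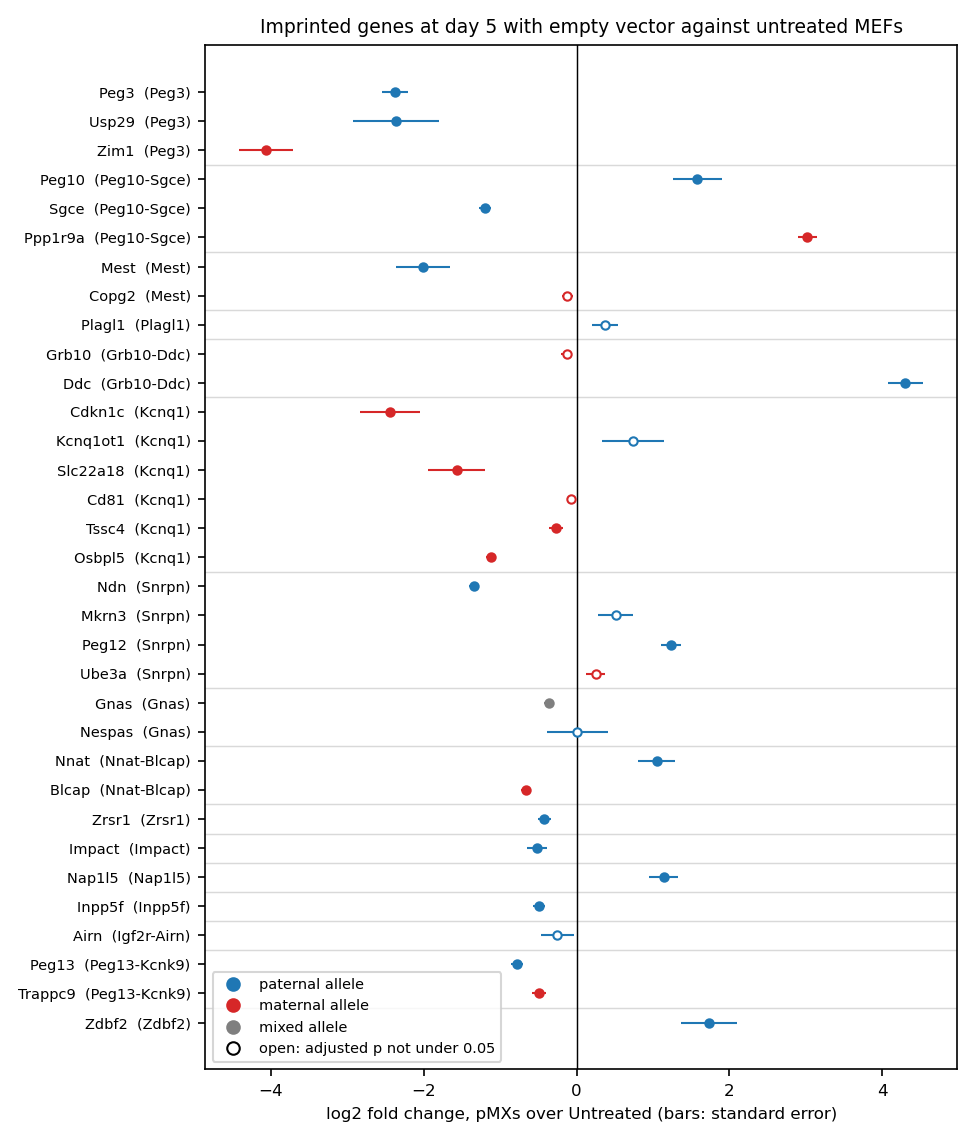
Log2 fold change of pMXs over Untreated (x axis, bars are the standard error) for the 33 imprinted genes tested, ordered by cluster (in brackets), coloured by the allele known to be expressed. Filled points passed an edgeR adjusted p of 0.05. The values span -4.06 for Zim1 to 4.30 for Ddc, and 17 filled points lie left of 0 against 7 on the right. The 17 include Usp29, which passed the filter only through Untreated and so had to be lower in pMXs.

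In the Peg3 cluster, Peg3 and Zim1 fell. Peg3, a zinc finger protein gene of the paternal allele known from growth and maternal behaviour, had 76.1, 66.2 and 68.1 CPM in pMXs (replicate numbers 2, 100 and 250), against 262, 371 and 464 CPM in Untreated (1, 2 and 100). Every pMXs library was below every Untreated library, a difference of -2.38 ± 0.17 or 5.21-fold lower (edgeR adjusted p = 1.1e-08). Zim1, a maternally expressed zinc finger gene beside it, had 0.951, 0.613 and 1.57 CPM in pMXs, against 10.6, 15.7 and 23.2 CPM in Untreated. The change of Zim1 was -4.06 ± 0.35 (edgeR adjusted p = 7.68e-08), the lowest log2 fold change among the 33. Usp29, which starts next to Peg3 on the other strand, had 3, 2 and 2 counts in pMXs and 15, 12 and 16 counts in Untreated, and since it passed the filter only through Untreated no test is read from it.

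Genes of the Peg10-Sgce cluster did not move together. Peg10, a gene derived from a retrotransposon that mice need to form a placenta, had 736, 479 and 431 CPM in pMXs, against 197, 222 and 131 CPM in Untreated. Each pMXs library was above each Untreated library, and Peg10 rose by 1.58 ± 0.32 (edgeR adjusted p = 0.000769). Sgce, the epsilon-sarcoglycan gene, starts beside Peg10 on the other strand and is likewise paternal. It had 13.06, 14.14 and 14.03 CPM in pMXs, against 31.4, 30.2 and 33.5 CPM in Untreated, and fell by 1.20 ± 0.08 on the log2 scale (edgeR adjusted p = 4.92e-09). Ppp1r9a, which encodes the actin-binding scaffold neurabin and is maternally expressed in some tissues, had 42.5, 35.8 and 40.1 CPM in pMXs, against 4.62, 5.29 and 4.67 CPM in Untreated. It rose by 3.02 ± 0.12, or 8.11-fold (edgeR adjusted p = 8.44e-12), the only one of the 12 maternally expressed genes tested that rose in the fit of all 13 libraries.

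In the Grb10-Ddc cluster, Ddc had the highest log2 fold change of the 33 genes. Ddc encodes aromatic L-amino acid decarboxylase and is imprinted, with paternal expression, in the embryonic heart. It had 12.4, 13.2 and 9.38 CPM in pMXs, against 0.375, 0.554 and 0.876 CPM in Untreated, which are 9 to 18 counts. Ddc rose by 4.30 ± 0.23, or 19.7-fold (edgeR adjusted p = 3.2e-10). Grb10, an adaptor that dampens insulin and growth factor signalling and is maternally expressed in mesenchyme, had 2575, 2339 and 2616 CPM in pMXs, against 2644, 2787 and 2811 CPM in Untreated. The pMXs libraries lay below the Untreated ones by a small margin, and the change of -0.13 ± 0.07 did not pass (edgeR adjusted p = 0.108), though it did in DESeq2 (-0.14, adjusted p = 0.0359).

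Of the 6 genes of the set tested in the Kcnq1 cluster, 4 fell and none rose (66.7%, against 70.1% of all genes). All 4 are maternal, and Kcnq1ot1 is the only paternal gene of the 6. Ascl2 of the same cluster, outside the set, rose, as given below. Cdkn1c, which encodes the cell cycle inhibitor p57, had 9.13, 23.7 and 26.1 CPM in pMXs, against 104, 84.3 and 134 CPM in Untreated. Groups did not overlap, and Cdkn1c fell by 2.44 ± 0.39 on the log2 scale (edgeR adjusted p = 0.000129). Osbpl5, a lipid transfer protein gene, had 60.1, 59.6 and 68.6 CPM in pMXs, against 139, 136 and 134 CPM in Untreated, a change of -1.12 ± 0.07 (edgeR adjusted p = 7.67e-10). Slc22a18, a transporter gene at 0.317 to 0.684 CPM in pMXs and 1.16 to 2.12 CPM in Untreated, and Tssc4 changed by -1.57 ± 0.37 and -0.27 ± 0.09. The Tssc4 call was lost without Untreated replicate 1 (edgeR adjusted p = 0.0634), without pMXs replicate 100 (0.0782) and within replicate numbers 100 and 250 (0.142), and the Slc22a18 change was -2.37 within replicate numbers 1 and 2. Kcnq1ot1, the paternal long RNA that silences the cluster on its own allele, had 43.6, 15.1 and 20.3 CPM in pMXs, against 11.8, 24.3 and 11.0 CPM in Untreated. Its groups overlapped and it did not pass (0.74 ± 0.41, edgeR adjusted p = 0.122), but it passed with the replicate block (0.85, adjusted p = 0.0339), without Untreated replicate 2 (1.20, adjusted p = 0.0196) and without pMXs replicate 100 (1.04, adjusted p = 0.0328). Cd81, a tetraspanin gene at the edge of the cluster, differed by -0.07 ± 0.06.

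Genes of the Snrpn cluster moved in both directions. Ndn, which encodes necdin, a growth suppressor, had 57.2, 66.2 and 62.1 CPM in pMXs, against 163, 159 and 147 CPM in Untreated. All pMXs libraries were lower, and Ndn fell by 1.34 ± 0.07 on the log2 scale (edgeR adjusted p = 4.46e-10). Peg12, a paternal gene related to the Frat inhibitors of GSK3, had 25.0, 29.6 and 26.4 CPM in pMXs, against 13.7, 11.8 and 9.01 CPM in Untreated, and rose by 1.23 ± 0.13 (edgeR adjusted p = 4.51e-07). Mkrn3, a ubiquitin ligase gene, changed by 0.51 and did not pass (edgeR adjusted p = 0.0599), but it passed without pMXs replicate 250 (0.62, adjusted p = 0.0401). Ube3a, the maternal ubiquitin ligase gene of neurons, was 0.25 higher, below the threshold (edgeR adjusted p = 0.0823) in all 13 libraries but past it without Untreated replicate 100 (0.37, adjusted p = 0.012).

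At the remaining loci, 3 more genes rose, each paternal. Nnat, a membrane proteolipid gene nested in Blcap, had 29.7, 26.7 and 31.6 CPM in pMXs, against 20.4, 13.1 and 8.57 CPM in Untreated. The groups did not overlap, and the change was 1.05 ± 0.24 (edgeR adjusted p = 0.00126), or 1.76 within replicate numbers 100 and 250. Its host Blcap, maternal in brain, fell by 0.66 on the log2 scale (edgeR adjusted p = 7.97e-07). Nap1l5, an intronless gene related to nucleosome assembly proteins that lies in an intron of Herc3, had 6.15, 4.64 and 4.52 CPM in pMXs, against 2.25, 1.96 and 2.68 CPM in Untreated, and rose by 1.14 ± 0.19 (edgeR adjusted p = 7.47e-05). Zdbf2, a paternal gene known from growth after birth in mice, had 202, 97.4 and 88.9 CPM in pMXs, against 32.0, 50.4 and 35.0 CPM in Untreated, and rose by 1.73 ± 0.37 (edgeR adjusted p = 0.00119).

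The other genes that fell were Mest, Peg13, Gnas, Inpp5f, Impact, Trappc9 and Zrsr1. Mest, a hydrolase gene of embryonic mesoderm, was low in every library, at 0.571 to 0.958 CPM in pMXs and 1.91 to 4.87 CPM in Untreated, and changed by -2.01 ± 0.35 (edgeR adjusted p = 9.24e-05). In the annotation used here, 32.9% of Mest exon bases overlap Copg2 on the other strand, and its counts are uncertain because the sources used here do not give the strand setting used for counting. The same holds for Usp29 (32.3%, with Zim3), Nespas (31.4%, with Gnas), Copg2 (23%) and Ube3a (16.5%, with Snhg14). Peg13, a long RNA inside Trappc9, fell by 0.78 on the log2 scale. Gnas (-0.36), Inpp5f (-0.49), Impact (-0.52), Trappc9 (-0.49) and Zrsr1 (-0.42) changed less. Of these, Trappc9 did not pass within replicate numbers 100 and 250 (-0.24, edgeR adjusted p = 0.0866), Zrsr1 did not pass within numbers 1 and 2 (-0.27, adjusted p = 0.0681), and Impact changed by -0.32 within numbers 1 and 2 and by -0.81 within numbers 100 and 250. Copg2, Plagl1, Airn and Nespas did not pass, with changes between -0.25 and 0.37. Plagl1, a zinc finger transcription factor gene, passed without Untreated replicate 100 (0.69, edgeR adjusted p = 7.01e-06).

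Wild-type Tet2 was then compared with the empty vector at day 5. In Tet2-WT against pMXs, 5 of the 33 imprinted genes tested passed (15.2%), close to the 12.5% of all genes tested. Peg10 and Ddc rose, where 6.01% of all genes did, and Peg3, Cdkn1c and Nap1l5 fell, where 6.52% of all genes did. Cdkn1c is maternal and the other 4 are paternal. An unadjusted p under 0.05 was reached by 11 of the 33, against 25.2% of all genes. The median log2 fold change over the 33 was -0.04, against 0.00 over all genes, and 15 of the 33 had groups that did not overlap, against 34.6% of all genes.

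**Figure D2:**
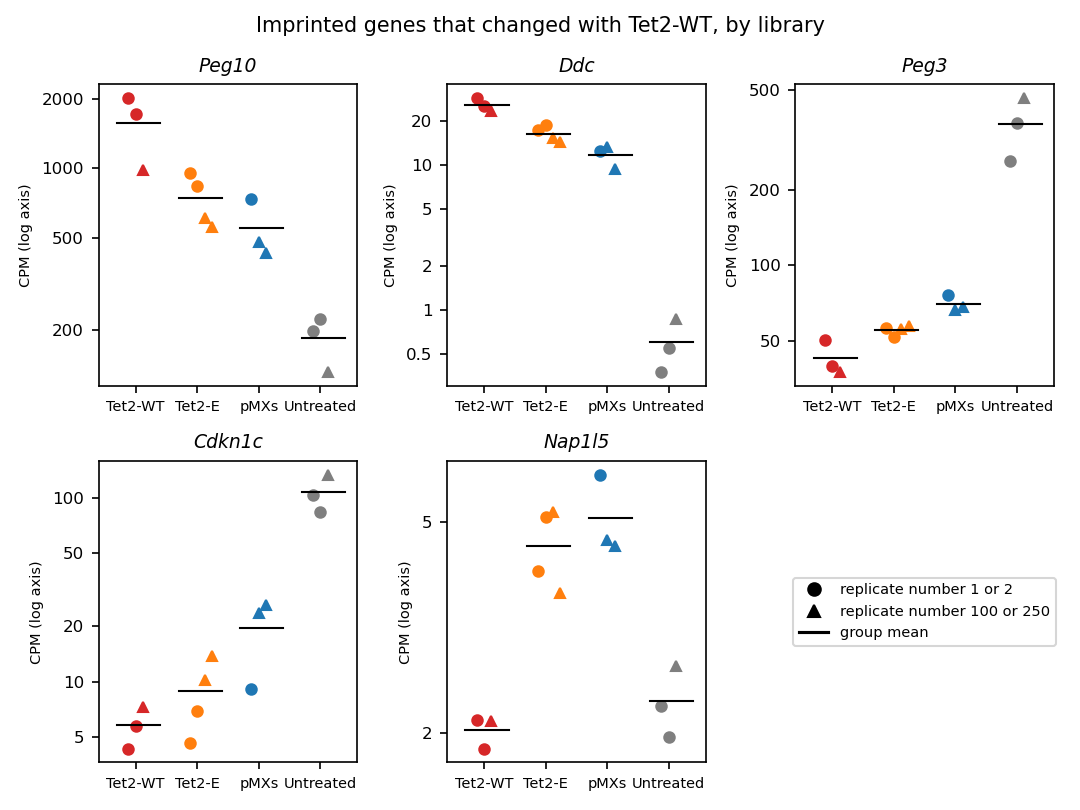
Level in CPM (log axis) of Peg10, Ddc, Peg3, Cdkn1c and Nap1l5 in each library of Tet2-WT, Tet2-E, pMXs and Untreated; circles are replicate numbers 1 and 2, triangles 100 and 250, and lines the group means. The 3 Tet2-WT libraries lie beyond the 3 pMXs libraries in each panel, from 981 to 2007 CPM against 431 to 736 CPM for Peg10.

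Peg10 had 2007, 1708 and 981 CPM in Tet2-WT (replicate numbers 1, 2 and 250), 955, 840, 606 and 554 CPM in Tet2-E (1, 2, 100 and 250), and 736, 479 and 431 CPM in pMXs (2, 100 and 250). Every Tet2-WT library was above every Tet2-E and pMXs library, and within each group libraries numbered 1 and 2 were above those numbered 100 and 250. Peg10 rose by 1.51 ± 0.32, or 2.85-fold, in Tet2-WT over pMXs (edgeR adjusted p = 0.00824). It differed by 1.34 within replicate numbers 1 and 2, with 1 pMXs library, and by 1.11 within 100 and 250, with 1 Tet2-WT library. Of its neighbours, Sgce differed by 0.08 (edgeR adjusted p = 0.64) and Ppp1r9a by 0.22 (0.175), and neither passed. Casd1, on the far side of Sgce, differed by 0.03 and did not pass (edgeR adjusted p = 0.895). Pon2, a lactonase gene of the same domain, did pass, with a rise of 0.56 ± 0.11 (edgeR adjusted p = 0.00443).

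Ddc had 28.8, 25.2 and 23.6 CPM in Tet2-WT, 17.2, 18.8, 15.2 and 14.4 CPM in Tet2-E, and 12.4, 13.2 and 9.38 CPM in pMXs. The 3 groups did not overlap, with Tet2-WT highest and pMXs lowest. Ddc rose by 1.14 ± 0.15, or 2.20-fold, in Tet2-WT over pMXs (edgeR adjusted p = 0.000172), and by 1.12 and 1.03 within the lower and the higher replicate numbers. Grb10 lies next to Ddc and is maternal. It had 2112, 2207 and 2203 CPM in Tet2-WT, against 2575, 2339 and 2616 CPM in pMXs, lower in every library by a small margin (-0.21, edgeR adjusted p = 0.0659), and passed in DESeq2 (-0.22, adjusted p = 0.00318). Cobl, an actin nucleator gene of the same domain, had 221 ± 7.71 CPM in Tet2-WT and 159 ± 10.8 CPM in pMXs (SD, n = 3 each) and rose by 0.47 ± 0.12 (edgeR adjusted p = 0.0158), a call lost without Tet2-WT replicate 1 (0.0662) or pMXs replicate 100 (0.0614) or 250 (0.0833) and within replicate numbers 1 and 2 (0.155).

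Peg3 had 50.4, 39.6 and 37.5 CPM in Tet2-WT, 56.0, 51.7, 55.8 and 57.1 CPM in Tet2-E, and 76.1, 66.2 and 68.1 CPM in pMXs. Tet2-WT was lowest and pMXs highest, with no overlap between the 3 groups. Peg3 fell by 0.72 ± 0.16 on the log2 scale in Tet2-WT over pMXs, or 1.65-fold (edgeR adjusted p = 0.00931). The change was -0.76 within replicate numbers 1 and 2, with 1 pMXs library, and -0.84 within 100 and 250, with 1 Tet2-WT library. Usp29 and Zim1 of the same cluster did not pass, at 0.34 ± 0.72 and -0.04 ± 0.46 (edgeR adjusted p = 0.824 and 0.971), on at most 30 counts a library.

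Cdkn1c had 4.32, 5.74 and 7.31 CPM in Tet2-WT, 4.61, 6.92, 10.2 and 13.9 CPM in Tet2-E, and 9.13, 23.7 and 26.1 CPM in pMXs. Tet2-WT lay below pMXs without overlap, and pMXs replicate 2 stood well below the other pMXs libraries and inside the range of Tet2-E. Cdkn1c fell by 1.77 ± 0.43 on the log2 scale in Tet2-WT over pMXs, or 3.41-fold (edgeR adjusted p = 0.0197), but this call held in only 8 of 15 alternatives. It was lost without Tet2-WT replicate 1 (edgeR adjusted p = 0.0883) or 2 (0.0706), without pMXs replicate 100 (0.0706) or 250 (0.0679), with no filter (0.0552), with only the libraries of both groups in the fit (0.0513) and within replicate numbers 1 and 2 (-0.84, 0.0569). Within numbers 100 and 250, with 1 Tet2-WT library, Cdkn1c differed by -1.75, and it passed with the replicate block (-1.46, edgeR adjusted p = 0.000659). Of the other genes of the set tested in the Kcnq1 cluster none passed: Kcnq1ot1 differed by -0.32 (edgeR adjusted p = 0.689), Slc22a18 by -0.76 (0.342), Osbpl5 by -0.15 (0.153), Tssc4 by 0.17 (0.261) and Cd81 by 0.04 (0.764).

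Nap1l5 had 2.11, 1.86 and 2.10 CPM in Tet2-WT, 4.04, 5.12, 5.23 and 3.68 CPM in Tet2-E, and 6.15, 4.64 and 4.52 CPM in pMXs, and these rest on 44 to 50, 74 to 140 and 66 to 121 counts. Tet2-WT lay below both others and overlapped Untreated (2.25, 1.96 and 2.68 CPM), while Tet2-E overlapped pMXs. Nap1l5 fell by 1.33 ± 0.19 on the log2 scale in Tet2-WT over pMXs, or 2.51-fold (edgeR adjusted p = 0.000351), with -1.63 and -1.12 within the lower and the higher replicate numbers. Its host Herc3, a ubiquitin ligase gene expressed from both alleles, had 46.6 ± 2.44 CPM in Tet2-WT and 39.5 ± 1.71 CPM in pMXs (SD, n = 3 each), and the difference of 0.24 ± 0.09 did not pass (edgeR adjusted p = 0.0836), except with only the libraries of both groups in the fit (0.0346). Peg3, Peg10, Ddc and Nap1l5 passed in all 15 alternatives for Tet2-WT against pMXs.

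Upstream sequences are shown for the called genes whose windows RefSeq gives (GRCm38.p6, a later build than the mm9 of the counts), because imprints are kept as methylation of CpG sites and ZFP57 binds the hexamer TGCCGC when its CpG is methylated. Each run reads 5′ to 3′ on the gene's strand, a full window ends at the base before an annotated start, and capitals mark CG and TGCCGC. The Nap1l5 window (chr6:58907127-58907376, minus strand) has 10 CpG sites and 1 TGCCGC. The Peg3 run (chr7:6730422-6730582, minus strand) is the 161 bases of its window free of annotated exons, with 5 CpG sites. Ddc has 2 annotated starts, at chr11:11898145-11898394 with 1 CpG site and at chr11:11890409-11890658 with 4 (both minus strand).
Nap1l5 upstream: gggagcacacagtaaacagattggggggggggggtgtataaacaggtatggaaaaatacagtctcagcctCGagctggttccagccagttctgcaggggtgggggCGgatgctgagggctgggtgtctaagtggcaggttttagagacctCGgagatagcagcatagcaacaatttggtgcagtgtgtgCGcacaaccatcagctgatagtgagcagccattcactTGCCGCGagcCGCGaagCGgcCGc
Peg3 upstream: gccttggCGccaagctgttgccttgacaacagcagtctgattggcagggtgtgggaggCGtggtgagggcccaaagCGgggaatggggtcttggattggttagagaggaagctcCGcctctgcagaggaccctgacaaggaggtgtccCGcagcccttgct
Ddc upstream of the distal start: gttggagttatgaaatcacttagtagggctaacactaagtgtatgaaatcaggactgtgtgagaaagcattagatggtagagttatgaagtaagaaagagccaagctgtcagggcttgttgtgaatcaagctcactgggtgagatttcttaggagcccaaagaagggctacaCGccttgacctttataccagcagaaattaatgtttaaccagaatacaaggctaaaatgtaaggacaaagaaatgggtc
Ddc upstream of the proximal start: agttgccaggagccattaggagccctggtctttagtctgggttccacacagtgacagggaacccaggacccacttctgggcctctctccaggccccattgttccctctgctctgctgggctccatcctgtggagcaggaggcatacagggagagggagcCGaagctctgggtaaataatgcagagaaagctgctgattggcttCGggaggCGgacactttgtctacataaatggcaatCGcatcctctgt
The hexamer, searched on both strands, lies in 8.68% of 32851 upstream windows of 250 bases and in 9 of the 45 windows (20%) of the 30 imprinted genes matched, where windows of the same gene can overlap. Windows of imprinted genes held a median of 12 CpG sites, against 6 over all windows. The hexamer itself holds a CpG, so its shares are not compared like for like. The windows were taken before annotated starts and were not chosen as imprinting control regions. Peg10, Sgce and Cdkn1c were not matched.

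The stalling mutant was set against the empty vector in the same way. In Tet2-E against pMXs 0 of the 33 genes passed in edgeR and 0 of 32 in DESeq2, where 0.0479% of all genes tested did (7 genes, with 0.0205% higher and 0.0274% lower). An unadjusted p under 0.05 was reached by 5 of the 33 (Ddc, Peg3, Cdkn1c, Airn and Impact), against 9.33% of all genes, and 5 of the 33 had groups that did not overlap, against 10.2%. Ddc differed by 0.48 ± 0.14 (edgeR adjusted p = 0.267), with each of the 4 Tet2-E libraries above each of the 3 pMXs libraries. Peg3 differed by -0.34 ± 0.15 (edgeR adjusted p = 0.501), again without overlap. Cdkn1c differed by -1.11 ± 0.38 (edgeR adjusted p = 0.375) with overlap, and it passed with the replicate block (-1.01, adjusted p = 0.0319), with a term for the set of replicate numbers (-0.99, 0.0191) and within numbers 100 and 250 (-1.04, 0.00205). Peg10 differed by 0.43 ± 0.29 (edgeR adjusted p = 0.701) and passed within numbers 100 and 250 (0.35, adjusted p = 0.0283). Nap1l5 differed by -0.18 ± 0.17 (edgeR adjusted p = 0.796).

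**Figure D3:**
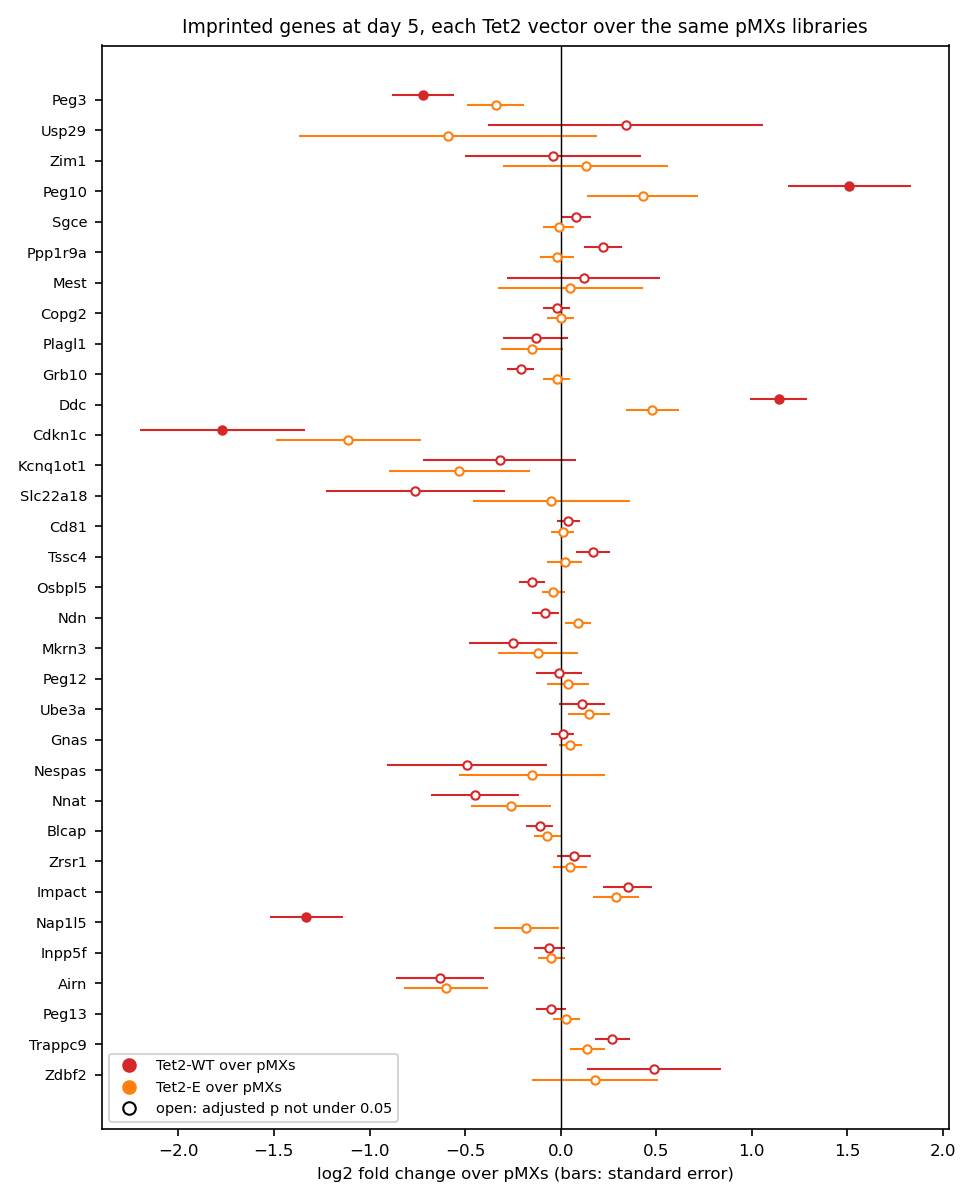
Log2 fold change over the same 3 pMXs libraries (x axis, bars are the standard error) of Tet2-WT and of Tet2-E for the 33 imprinted genes tested. Filled points passed an edgeR adjusted p of 0.05: 5 for Tet2-WT, with Peg10 at 1.51 and Cdkn1c at -1.77, and 0 for Tet2-E.

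Airn, the long RNA that silences Igf2r on the paternal allele, had 1.97, 1.34 and 2.25 CPM in Tet2-WT, 1.47, 2.15, 1.94 and 1.95 CPM in Tet2-E, and 3.36, 2.30 and 3.01 CPM in pMXs. Both Tet2 vectors lay below the empty vector without overlap, on 28 to 60 counts a library, and neither difference passed (-0.63 ± 0.23 with edgeR adjusted p = 0.0926, and -0.60 ± 0.22 with 0.379). Igf2r itself, a maternal gene, differed by -0.13 and 0.00 over pMXs. Impact, a paternal regulator of the translation kinase GCN2, had 251, 250 and 269 CPM in Tet2-WT, 251, 298, 211 and 226 CPM in Tet2-E, and 206, 198 and 200 CPM in pMXs. It was above pMXs in all 7 Tet2 libraries and did not pass (0.35 ± 0.13 with edgeR adjusted p = 0.0891, and 0.29 ± 0.12 with 0.453). Its Tet2-WT difference passed with only the libraries of both groups in the fit (0.35, edgeR adjusted p = 0.00245), as did those of Nnat (-0.45, 0.0104) and Trappc9 (0.26, 0.0414). Within replicate numbers 100 and 250, with 1 Tet2-WT library, the Impact difference was 0.45. Tet2-WT and Tet2-E share their 3 pMXs libraries here, so differences that go the same way are not separate evidence.

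The vectors themselves were compared in Tet2-WT against Tet2-E. Of the 33 imprinted genes 2 passed (6.06%), where 4.62% of all genes tested did (2.43% higher and 2.19% lower). Ddc rose by 0.66 ± 0.14, or 1.58-fold (edgeR adjusted p = 0.00977), a call lost without Tet2-WT replicate 1 (0.58, adjusted p = 0.0743). Nap1l5 fell by 1.15 ± 0.18 on the log2 scale, or 2.22-fold (edgeR adjusted p = 0.00176), and passed in all 16 alternatives. Peg10 was higher by 1.08 ± 0.29, or 2.12-fold, with no overlap, and just missed the threshold (edgeR adjusted p = 0.056) in the fit of group means alone. It passed in 8 of 16 alternatives, among them the replicate block (0.96, edgeR adjusted p = 1.64e-05) and a term for the set of replicate numbers (0.94, 5.35e-06). The fits without Tet2-WT replicate 250 (1.33, edgeR adjusted p = 0.0144) or Tet2-E replicate 1 (1.24, 0.04) were also among them. Within replicate numbers 1 and 2 Peg10 differed by 1.05, and within 100 and 250 by 0.76. Peg3 differed by -0.38 ± 0.15 (edgeR adjusted p = 0.229), and by -0.59 within numbers 100 and 250, with 1 Tet2-WT library. Cdkn1c differed by -0.66 ± 0.43 (edgeR adjusted p = 0.554). Impact differed by 0.31 within numbers 100 and 250, again with 1 Tet2-WT library, and Grb10 passed in DESeq2 (-0.20, adjusted p = 0.00893).

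Levels of markers of some other cell types differed between Tet2-WT and pMXs, a comparison in which 12.5% of all genes tested passed. Summed fibroblast, macrophage and neural markers did not overlap between these groups. The sums of early reprogramming, trophoblast and skeletal muscle markers did overlap. Summed fibroblast markers were at 17658 to 18858 CPM in Tet2-WT, 21406 to 22695 CPM in Tet2-E and 23325 to 27428 CPM in pMXs, and in Tet2-WT against pMXs 7 of 16 fell and 2 rose. Summed macrophage markers, mostly Laptm5, were at 213 to 310 CPM in Tet2-WT, 93.6 to 127 CPM in Tet2-E and 81.1 to 94.7 CPM in pMXs, and 4 of 6 tested rose in Tet2-WT against pMXs, while Adgre1 was at 0 in Tet2-WT and Adgre1, Cd53 and Ptprc were at 0 in pMXs. Summed neural markers were at 787 to 1241 CPM in Tet2-WT, 647 to 900 CPM in Tet2-E and 606 to 748 CPM in pMXs, with 3 of 14 tested up and 3 down in Tet2-WT. Early reprogramming and epithelial markers summed to 248 to 379 CPM in Tet2-WT, 302 to 375 CPM in Tet2-E, 361 to 458 CPM in pMXs and 7.01 to 8.11 CPM in Untreated. Of the 13 tested, 2 rose and 1 fell in Tet2-WT against pMXs. Trophoblast and extraembryonic markers summed to 26.7 to 33.5 CPM in day 5 libraries and skeletal muscle markers to 28.1 to 42.5 CPM, against 33.8 to 40.9 CPM and 162 to 189 CPM in Untreated. The trophoblast sum hides changes in both directions. In pMXs against Untreated 3 of the 7 tested rose and 4 fell (100%, against 70.1% of all genes). Among trophoblast markers Prl3d1, Tpbpa and Elf5 were at 0 in Tet2-WT and Sox17 in all day 5 groups. The part of these cells in the changes of Peg3, Cdkn1c, Peg10, Ddc and Nap1l5 was not tested.

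Levels of genes that did not pass also varied between replicate numbers. Zdbf2 had 230, 195 and 120 CPM in Tet2-WT, 193, 164, 130 and 98.7 CPM in Tet2-E, and 202, 97.4 and 88.9 CPM in pMXs. In each vector group the libraries numbered 1 and 2 stood above those numbered 100 and 250, and the groups overlapped (Tet2-WT over pMXs 0.49 ± 0.35, edgeR adjusted p = 0.446). Kcnq1ot1 had 29.5, 16.3 and 17.1 CPM in Tet2-WT, 20.3, 19.2, 17.1 and 15.9 CPM in Tet2-E, and 43.6, 15.1 and 20.3 CPM in pMXs. Its highest library was pMXs replicate 2, and the groups overlapped. Plagl1 had 71.3, 62.9 and 62.4 CPM in Tet2-WT, 64.6, 72.1, 63.8 and 59.3 CPM in Tet2-E, and 70.4, 71.1 and 74.1 CPM in pMXs, a difference of -0.13 ± 0.17 for Tet2-WT over pMXs (edgeR adjusted p = 0.694). The labels state that libraries were prepared in 2 sets without saying which was in which. Day 5 libraries varied together across genes within numbers 1 and 2 and within 100 and 250, as given below. Whether these numbers mark the sets of preparation was not tested.

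**Figure D4:**
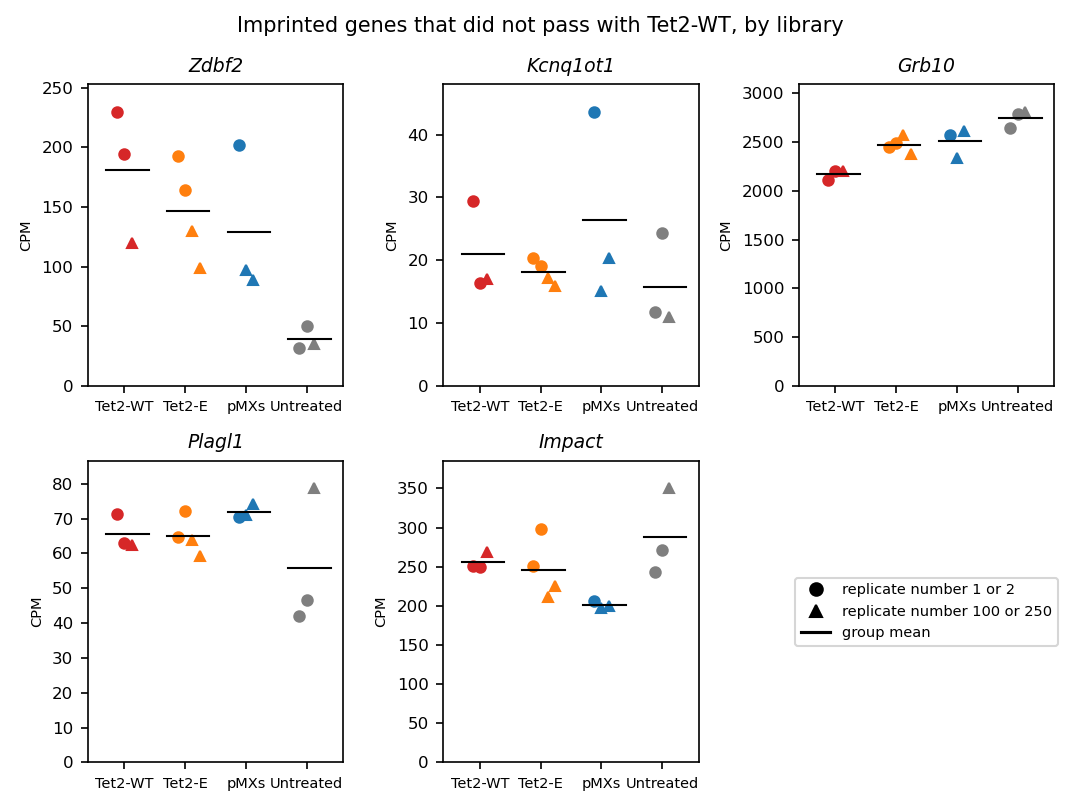
Level in CPM (linear axis) of Zdbf2, Kcnq1ot1, Grb10, Plagl1 and Impact in each library of Tet2-WT, Tet2-E, pMXs and Untreated; circles are replicate numbers 1 and 2, triangles 100 and 250, and lines the group means. No gene shown passed within day 5 in edgeR with all 13 libraries, while Grb10 did in DESeq2 for Tet2-WT (-0.22 over pMXs) and Impact in edgeR within numbers 100 and 250 (0.45) and with only Tet2-WT and pMXs in the fit (0.35), and for Zdbf2 circles lie above triangles in every day 5 group, as in pMXs with 202 CPM against 97.4 and 88.9 CPM.

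Other genes of the same domains, 18 of 25 tested, were not in the set of 39. In pMXs against Untreated 5 rose and 9 fell (77.8%, against 70.1% of all genes), among them Cobl (3.33 ± 0.14), the trophoblast factor gene Ascl2 of the Kcnq1 cluster (2.82 ± 0.25) and Asb4 (-3.91 ± 0.27). The transporter gene Slc22a3 had 22 to 66 counts in pMXs and 0 to 2 in Untreated, and the protease inhibitor gene Tfpi2 had 0 to 2 in pMXs and 25 to 41 in Untreated. A gene that passed the filter only through Untreated had to fall here. This was not checked for the 18, and Tfpi2, among the 9, may be such a gene. Tnfrsf23, a decoy receptor gene of the Kcnq1 cluster, fell by 1.43 ± 0.28 on the log2 scale in pMXs against Untreated. In Tet2-WT against pMXs 5 rose and 1 fell (33.3%, against 12.5% of all genes, of which 6.01% were higher and 6.52% lower), with a median log2 fold change of 0.22, against 0.00 over all genes. In Tet2-E against pMXs 0 of the 18 passed in edgeR, with 5 at an unadjusted p under 0.05, and 1 in DESeq2.

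Beside Zdbf2, the chemerin receptor gene Gpr1 had 1.69, 1.75 and 1.34 CPM in Tet2-WT, against 0.254, 0.345 and 0.274 CPM in pMXs, which is 28 to 47 counts against 4 to 9, and rose by 2.40 ± 0.42 (edgeR adjusted p = 0.00135). Adam23, a cell adhesion gene of the same domain, had 222, 223 and 207 CPM in Tet2-WT, against 138, 128 and 123 CPM in pMXs. Both pairs of groups were apart in every library. Adam23 rose by 0.74 ± 0.08 in Tet2-WT over pMXs (edgeR adjusted p = 3.38e-05) and by 0.43 ± 0.08 over Tet2-E (0.00324). In Tet2-E against pMXs the change of Adam23 was 0.31 ± 0.08 (edgeR adjusted p = 0.152), past the threshold in DESeq2 (0.023). The lactonase gene Pon2, of the Peg10 domain, rose by 0.56 ± 0.11 (edgeR adjusted p = 0.00443). Pon2 and Cobl were named after their values were seen, to complete the 5. Tnfrsf23 rose by 0.95 ± 0.28 (edgeR adjusted p = 0.045) and the phospholipid flippase gene Atp10a fell by 0.52 ± 0.15 on the log2 scale (0.0285), and each of these calls was lost without Tet2-WT replicate 1 or 2 or pMXs replicate 100 or 250, at edgeR adjusted p of 0.122 to 0.162 for Tnfrsf23 and 0.0765 to 0.142 for Atp10a.

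Neighbours known from both alleles, 39 of 40 tested, passed in 69.2% of cases in pMXs against Untreated, against 70.1% of all genes. Of the 39, 16 rose and 11 fell, led by Herc3 (2.07 ± 0.09), Fignl1 (1.44 ± 0.09) and the translation elongation factor gene Eef1b2 (1.11 ± 0.09) upwards and by the lipid-binding protein gene Osbpl1a (-1.24 ± 0.10), the magnesium transporter gene Nipa1 (-1.08 ± 0.12) and Cabyr (-0.94 ± 0.27) downwards. In Tet2-WT against pMXs the cathepsin gene Ctsz rose by 0.53 ± 0.07 (edgeR adjusted p = 0.000206), and Phactr2, a regulator of protein phosphatase beside Plagl1, fell by 0.67 ± 0.15 on the log2 scale (0.00672). In Tet2-E against pMXs 0 of the 39 passed in edgeR, with 4 at an unadjusted p under 0.05, and 1 in DESeq2 (Ctsz, 0.29, adjusted p = 0.00424).

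Factors known to keep imprints passed about as often as all genes in pMXs against Untreated. Of 23 such genes 21 were tested, and 15 rose and 0 fell in edgeR, as in DESeq2 (71.4%, against 70.1% of all genes, of which 35% were higher). Rif1, a chromatin protein that sets the timing of DNA replication, rose by 1.84 ± 0.09, the methyltransferase gene Dnmt3b by 1.77 ± 0.16 and Uhrf1, which brings the maintenance methyltransferase DNMT1 to newly copied DNA, by 1.42 ± 0.17. Trim28 rose by 0.50 ± 0.09 and Dnmt1 by 0.73 ± 0.12. Zfp57 had 45.6 ± 3.05 CPM in pMXs and 37.0 ± 2.98 CPM in Untreated (SD, n = 3 each), a change of 0.30 ± 0.10 (edgeR adjusted p = 0.0141) that was lost without Untreated replicate 2 (0.0579) or pMXs replicate 250 (0.0596) and within replicate numbers 1 and 2 (0.268). In Tet2-WT against pMXs 1 of the 21 fell (4.76%, against 12.5% of all genes called): the methyltransferase gene Dnmt3a had 72.8, 71.9 and 58.7 CPM in Tet2-WT, against 98.9, 79.0 and 87.1 CPM in pMXs. Groups did not overlap, and the change was -0.38 ± 0.11 (edgeR adjusted p = 0.0309), lost without Tet2-WT replicate 2 (0.0541) or 250 (0.114) or pMXs replicate 2 (0.127) or 250 (0.0817). Tet2-E against pMXs and Tet2-WT against Tet2-E called 0 of the 21 in edgeR and 0 in DESeq2, with 1 at an unadjusted p under 0.05 in each.

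Genes whose log2 CPM followed that of Peg10 most closely over the 13 libraries were Tbc1d30 (Pearson r = 0.990), Nes (0.989), Eif2ak4 (0.986), Itgal (0.985) and E030011O05Rik (0.985). Over the 10 day 5 libraries these values were 0.967, 0.988, 0.959, 0.982 and 0.957. Nes encodes the intermediate filament nestin, Eif2ak4 the translation kinase GCN2 and Itgal an integrin of leukocytes. The libraries share groups and replicate numbers, so these are descriptions of the same 13 points.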

How the data were processed

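Values are raw read counts per gene for 13 libraries, which the authors deposited as 1 table. The submitters' processing notes name STAR 2.6.1a, featureCounts 1.6.2, SAMtools 1.7, bedtools 2.27.1, R 3.6.2, DESeq2 1.26.0 and the build mm9, with no settings, and the strand setting is not given in the sources used here. No row without a gene name was present.

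The tests used edgeR 4.0.16 (with limma 3.58.1) in R 4.3.3. The filter was filterByExpr over the 4 groups, with a minimum of 10 counts and a total of 15, and it left 14607 of 24495 genes. After TMM scaling, all 4 comparisons were read from the same robust quasi-likelihood model, which has 1 mean for each group and no term for replicate numbers or their sets. P-values were adjusted by Benjamini-Hochberg over all genes tested, with a threshold of 0.05. The standard error is the absolute log2 fold change divided by the square root of F. CPM use TMM library sizes and do not correct for length, so levels are compared within a gene. The biological coefficient of variation was 0.102, and chi-square values divided by their degrees of freedom were 6.63 to 42.9 over pairs of replicates, above counting error. The script was tested on simulated counts.

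Residuals from group means correlated at 0.12 to 0.34 across genes for 8 same-number pairs within day 5, at 0.08 to 0.36 for 8 pairs of different numbers within a set (1 and 2, or 100 and 250), at -0.42 to -0.05 for 17 pairs from opposite sets, and at -0.04 to 0.17 for 7 same-number pairs with Untreated. Within day 5, same-number pairs were no closer than pairs of different numbers within a set, and pairs from opposite sets were all negative. Residuals cancel out within a group, so negative values between sets follow in part from positive ones within sets. They are not separate evidence. The sets, and not single numbers, were therefore read as grouping the day 5 libraries. No such grouping was read for Untreated. The within-set fits have 1 library of pMXs among numbers 1 and 2, and 1 of Tet2-WT and 1 of Untreated among 100 and 250, which is assumed to vary like the other groups.

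Alternatives were DESeq2 1.42.0, its size factors in edgeR, no filter, at least 1 CPM in 3 libraries, the replicate block, a term for the set of numbers, fits within each set, fits of only the compared groups, and each library left out. The genes, lists and tests were chosen with earlier results of these data known. Values in every library are given for imprinted genes called within day 5, or called in pMXs against Untreated where the log2 fold change was 1 or more and a group reached 5 CPM, and some others were added after their values were seen. The lists' named genes are the called ones of largest change, up to 3 in each direction. For the marker lists only sums and counts are given. Exon overlaps come from GENCODE M21 and upstream windows from RefSeq, both on GRCm38.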

Additional observations from a re-analysis of the deposited data

Results flagged for a closer look

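Slc22a18 in Tet2-E had 1 library apart from the others: replicate 2 was at 0.138 CPM, which is 2 counts, against 0.597 to 0.629 CPM in the other 3. Its gap to the nearest of them was 0.935 of the whole range of the group. Groups of 4 libraries were looked at for 33 genes, and chance sets about 1 in 20 such groups apart.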

How the results depend on the processing

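In pMXs against Untreated the alternatives called 9142 to 10466 genes and 23 to 26 imprinted genes; leaving out 1 library gave 9648 to 10024 and 23 to 26, and the replicate block 10333 and 25. In Tet2-WT against pMXs leaving out 1 library gave 1097 to 1821 genes and 4 to 5 imprinted genes, the fit within replicate numbers 1 and 2 gave 1010 genes, and the replicate block 1904 and 5. In Tet2-E against pMXs the 7 genes called became 140 with DESeq2, 17 with no filter, 93 with the replicate block, 152 with a term for the set of replicate numbers, 79 within numbers 1 and 2, 154 within numbers 100 and 250, 0 with only the 2 groups in the fit, and 1 to 50 without 1 library. The count of imprinted genes there was 1 with the replicate block, 1 with the set term, 2 within numbers 100 and 250, and 0 to 0 without 1 library. In Tet2-WT against Tet2-E the 675 genes became 1052 with the set term, 965 with the replicate block and 335 to 675 without 1 library, and the 2 imprinted genes became 4 with DESeq2, 5 within numbers 100 and 250, 3 with the replicate block and 1 to 3 without 1 library. The cause was not tested. No imprinted gene reversed a called direction under any alternative. With the replicate block, calls changed for Kcnq1ot1, for Cdkn1c in Tet2-E against pMXs and for Peg10 in Tet2-WT against Tet2-E, and for no other imprinted gene. Calls of low genes (Slc22a18, Mest, Zim1, Nap1l5) rest on few counts, and 3 or 4 libraries a group leave changes of the size of Grb10 near the threshold. Reads from overlapping genes on opposite strands cannot be told apart if strand was not used.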
